A study of Oryza sativa with 12 samples.

Results

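In spikelets of the rice (Oryza sativa) cultivar IRGA 428, 160 genes separated a pair of libraries, 1 from each temperature, from the other 4 libraries of that cultivar. Counts were scaled to CPM, counts per 1000000 of the gene counts of a library. Of the 57174 listed genes, 18754 had a mean of at least 2 CPM over the 6 IRGA 428 libraries. A gene was taken as a member when control 3 and heat 1 both had at least 2 times the highest, or both at most 1/2 of the lowest, CPM of the other 4 (control 1, control 2, heat 2 and heat 3). By this rule 83 genes were higher in the pair (0.443% of the 18754) and 77 were lower (0.411%). The members were thus chosen by their IRGA 428 CPM values, which are given as a description without a test, and BR-IRGA 409 was used for measurements the rule had not seen.

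Plants of IRGA 428, a cultivar called heat sensitive in the labels, and of BR-IRGA 409, called tolerant, were raised in a greenhouse and moved to growth chambers around anthesis. Controls were held at 29 °C and heat-treated plants at 38 °C for 7 h of the day on 3 days. Spikelets from the middle of the panicle were frozen when the treatment ended, and each of the 4 groups had 3 libraries, with 2 plants behind each. No genotype other than the cultivar name and no other treatment is given in the labels.

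A rice spikelet encloses the flower in a pair of hard bracts, with the stamens, the pistil and the lodicules, small organs that swell and push the bracts apart at anthesis. At that stage anthers open, pollen is shed and the ovary is fertilised, and rice is known to be especially prone to heat-induced sterility then. The tissue is thus a mixture of organs whose transcripts change over a short time around flowering. In bulk RNA of this kind, fewer cells of a type and less RNA per cell cannot be told apart. The files list gene IDs without names, and 0 of them matched the table of rice genes used here, so no function could be assigned and the members appear as IDs and counts.

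Control 3 and heat 1 were the most alike of the 15 couples of IRGA 428 libraries by the number of genes that differed. Between them, 21 of the 18754 genes (0.112%) differed by at least 2-fold on the scale of log2(CPM + 0.5), against 177 to 3168 for the other 14 couples. Controls differed from one another at 1731 to 2742 genes, and heat 2 and heat 3 at 177. By the median absolute difference on the same scale, heat 2 and heat 3 were as close as control 3 and heat 1 (0.124 and 0.126). The pair differed from each of the other 4 libraries at 1053 to 2742 genes. Their counts still differed by more than counting noise, with a chi-square of 5.71 per gene where such noise alone gives about 1, so they were kept as 2 libraries. BR-IRGA 409 controls 1 and 3 gave a similar value of 5.58, but at lower depth, 7.08 and 8.08 M gene counts. They differed by at least 2-fold at 380 of the 18754 genes (2.03%). All these measures depend on depth, so the couples are not compared on equal terms. Whether control 3 and heat 1 share material was not tested. Gene counts were 15.8 and 16.5 M (M, 1000000 counts) in the pair and 8.88 to 27.0 M in the other 4. Reads outside genes made up 6.94% and 6.60% in the pair and 6.54% to 8.80% in the other 4, so the pair lay within the range of the others in both. A control and a heat-treated library were thus closer to each other than to their own groups, and why was not tested.

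Summed over the members, the pair stood well apart on both sides. The 83 higher members summed to 9708 CPM in control 3 and 9606 CPM in heat 1. In the other libraries their sum was 1742 CPM in control 1, 1691 CPM in control 2, 3495 CPM in heat 2 and 3710 CPM in heat 3. The 77 lower members summed to 2741 CPM in control 3 and 2810 CPM in heat 1. Elsewhere their sum was 14118 and 13624 CPM in controls 1 and 2 and 9795 and 10047 CPM in heat 2 and 3. The higher members thus took 0.971% and 0.961% of the gene counts in the pair, and 0.169% to 0.371% in the other 4.

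Within the pair most members were nearly equal. Over all 18754 genes control 3 and heat 1 were also close, with a median absolute difference of 0.126 on the log2(CPM + 0.5) scale. The larger of the control 3 and heat 1 values exceeded the smaller by a median of 1.09 times for the higher members (1.01 to 1.42) and 1.12 times for the lower members (1.00 to 2.32). Relative to the other 4 libraries, the median difference on the log2(CPM + 0.5) scale was 1.88 for the higher members (1.15 to 5.52) and −1.85 for the lower members (−5.34 to −1.06). Over all 18754 genes the median was −0.06. Most members lay close to the limit of the rule: 24 higher and 29 lower members kept a margin of 3 times, and 14 and 10 kept one of 5 times. The higher member nearest the limit had 37.0 and 38.1 CPM in the pair and at most 18.5 CPM elsewhere (2.002 times), and the nearest gene left out had 11.7 and 13.4 CPM against at most 5.89 (1.994 times). On the lower side these margins were 2.001 and 1.999 times. Margins of 1.5 to 2 times were found for 184 further genes on the higher side and 143 on the lower side.

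**Figure D1:**
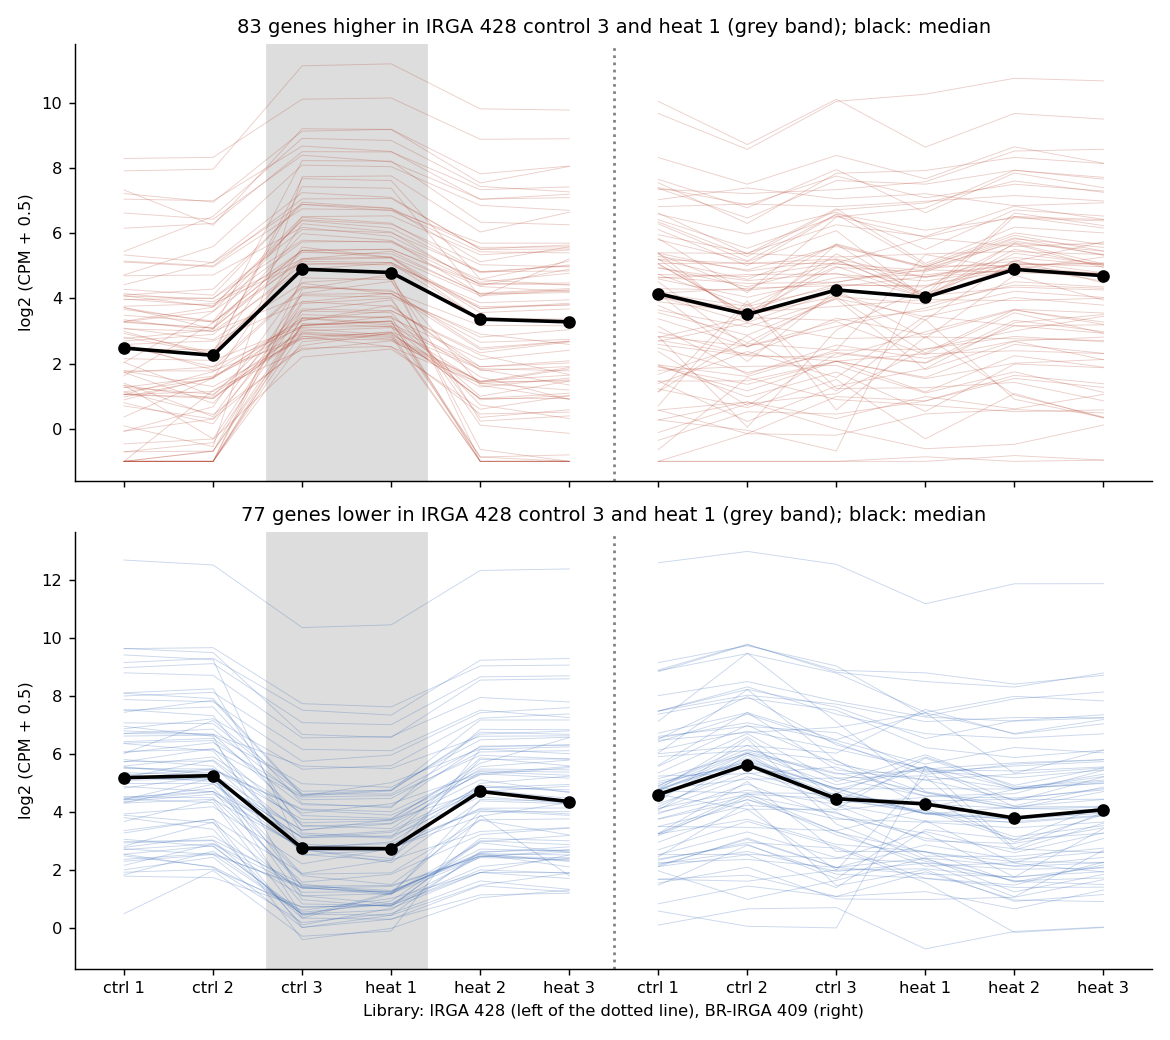
Level of each member (thin lines) and the median over members (black points) as log2(CPM + 0.5) in the 6 IRGA 428 libraries, left of the dotted line, and the 6 BR-IRGA 409 libraries, right of it; the 83 higher members are above and the 77 lower members below. The grey band marks control 3 and heat 1, where the median CPM was 29.3 and 27.3 for the higher members and 6.19 and 6.11 for the lower members.

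The other 4 IRGA 428 libraries were not alike, and most members formed 3 steps. The median CPM of the higher members was 5.07 in control 1, 4.27 in control 2, 9.82 in heat 2 and 9.23 in heat 3. For the lower members it was 35.6, 37.3, 25.4 and 19.9 in the same order. Controls 1 and 2 thus lay at one end, the pair at the other, and heat 2 and 3 in between. Heat 2 and 3 were both above controls 1 and 2 for 57 of the 83 higher members, where 22.8% of the 18754 genes had this order. For 53 of the 77 lower members they were both below, where 41% of all genes did. Together with the pair at the far end, which the rule fixes, this made the 3 steps for 57 higher members (5.03% of all genes) and 53 lower members (10.1%). These libraries belong to the rule, so nothing is read from the shares.

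The rule puts 1 library of each temperature at the same extreme, which by construction draws the temperature means of IRGA 428 together. With all 6 libraries, the median difference between 38 °C and 29 °C on the log2(CPM + 0.5) scale was 0.47 for the higher members and −0.34 for the lower members. Without control 3 and heat 1 it was 0.67 and −0.59. Over the 18754 genes the medians were −0.08 and −0.10.

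Among members with a mean of at least 10 CPM, MH01g0157600 kept the widest margin on the higher side. It had 204 CPM in control 3 and 196 CPM in heat 1. In controls 1 and 2 it had 5.07 and 4.27 CPM, and in heat 2 and 3 it had 23.6 and 34.9 CPM. The mean of the pair was 42.9 times that of controls 1 and 2 and 6.84 times that of heat 2 and 3. MH07g0091500 came next, with 172 and 166 CPM in the pair, 7.09 and 4.58 CPM in controls 1 and 2, and 16.1 and 36.6 CPM in heat 2 and 3. For both genes every library outside the pair was far below it, and the heat libraries outside the pair lay above the controls.

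On the lower side MH04g0681700 had the widest margin. It had 5.24 CPM in control 3 and 4.48 CPM in heat 1, against 677 and 604 CPM in controls 1 and 2 and 70.6 and 74.9 CPM in heat 2 and 3. Controls 1 and 2 were on average 132 times the pair, and heat 2 and 3 were 15.0 times the pair. MH02g0539000 had 5.18 and 5.93 CPM in the pair, 81.6 and 87.0 CPM in controls 1 and 2, and 55.2 and 56.1 CPM in heat 2 and 3. Outside the pair its heat libraries were also below the controls, by a smaller step than those of MH04g0681700.

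**Figure D2:**
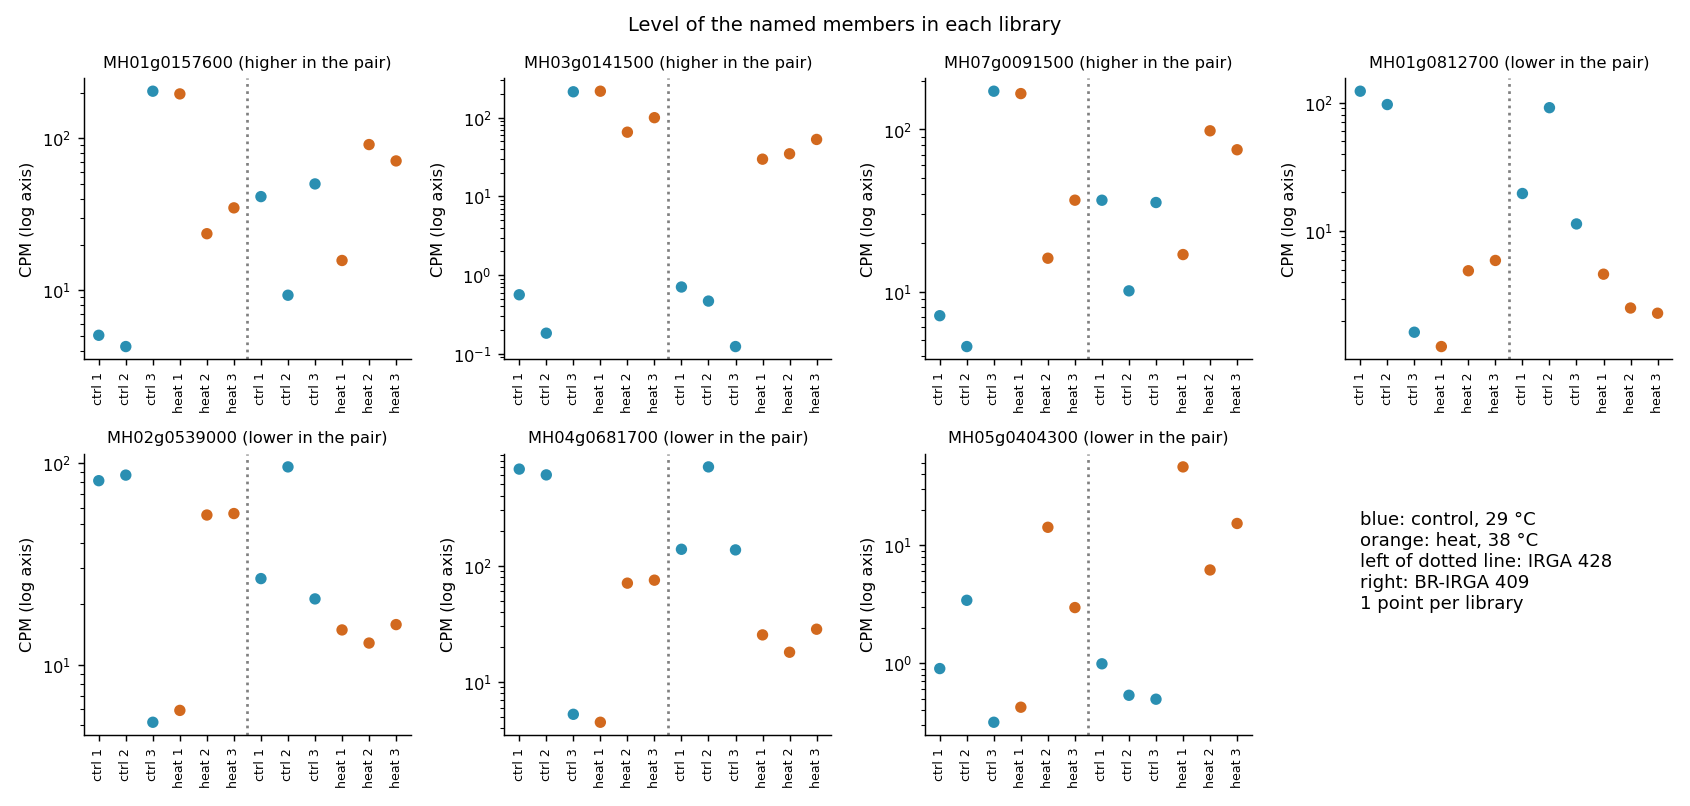
CPM of 7 named members in each of the 12 libraries on a log axis (blue, 29 °C; orange, 38 °C; 1 point per library). MH04g0681700 had 4.48 to 5.24 CPM in the IRGA 428 pair and at least 70.6 CPM in the other 4 libraries, and in BR-IRGA 409 it had 707 CPM in control 2 against 138 and 136 CPM in controls 1 and 3.

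A small set of higher members was close to absent outside the pair. For 8 of the 83, each of the other 4 IRGA 428 libraries had below 1 CPM, with at most 3 counts summed over the 4, and 4 of these genes had 0 counts in all 4 libraries. At these depths 0 counts allow a level of up to 0.111 to 0.338 CPM per library (3 counts, counting error only). In the pair they had 5.87 to 26.3 CPM. In BR-IRGA 409, 7 of the 8 were expressed in every library, at 16.1 to 143 CPM. Their mean in the pair was 15.9% to 39.7% of their mean in BR-IRGA 409 (median 27.2%). This set and the examples below were picked after the values had been seen.

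MH01g0397900 is 1 of these genes. It had 24.3 CPM in control 3 and 23.3 CPM in heat 1, and 0, 0, 0.145 and 0 CPM in control 1, control 2, heat 2 and heat 3. The 6 BR-IRGA 409 libraries had 112 to 143 CPM. MH06g0537500 had 19.0 and 26.3 CPM in the pair, 0 counts in the other 4 and 44.8 to 105 CPM in BR-IRGA 409. MH10g0196400 is the exception among the 8, with 8.91 and 8.29 CPM in the pair, at most 0.0741 CPM in the other 4 IRGA 428 libraries and at most 0.0655 CPM in BR-IRGA 409. The 8 were thus detected in the pair, at or near 0 counts in the other IRGA 428 libraries, and all but MH10g0196400 clearly present in BR-IRGA 409.

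The same contrast was then counted over all listed genes, whether members or not. At least 10 CPM in every BR-IRGA 409 library and below 1 CPM in each of the other 4 IRGA 428 libraries was found for 32 genes. Of these, 20 had at least 1 CPM in both control 3 and heat 1, at 6.35% to 39.7% of their BR-IRGA 409 mean (median 19.8%). The remaining 12 stayed below 1 CPM in both libraries of the pair, 5 of them with 0 counts. In the opposite class, 36 genes had below 1 CPM in every BR-IRGA 409 library and at least 10 CPM in each of the other 4 IRGA 428 libraries. The pair expressed all 36, at 67.9% to 146% of the mean of the other 4 (median 100.5%). The pair thus held transcripts of 20 of the 32 genes otherwise seen in BR-IRGA 409, and kept the 36 seen in IRGA 428. The source of these transcripts was not tested.

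**Figure D3:**
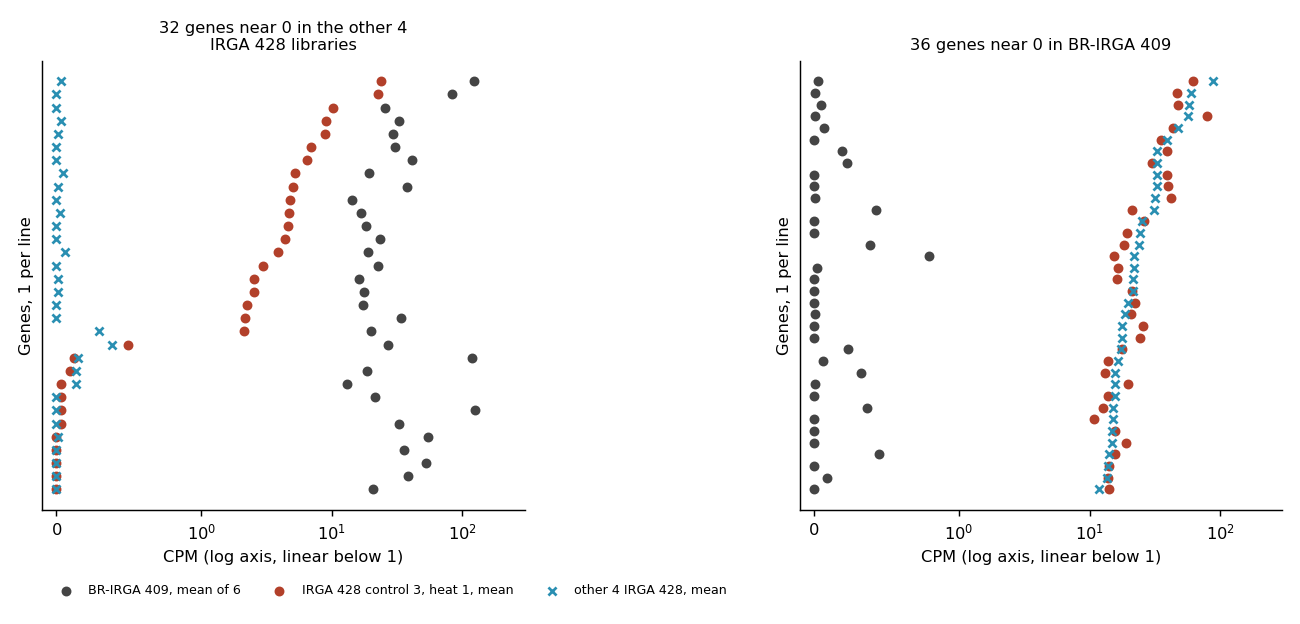
Mean CPM of single genes (1 per line; log axis, linear below 1) in BR-IRGA 409 (dark points), the IRGA 428 pair (red points) and the other 4 IRGA 428 libraries (crosses). On the left are the 32 genes near 0 in the other 4, of which 20 had at least 1 CPM in both of the pair and 12 did not; on the right are the 36 genes near 0 in BR-IRGA 409, where the pair and the other 4 lie together.

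By the digits in the IDs, read here as chromosome numbers, the 20 genes and the 12 genes had only chromosomes 4 and 8 in common. Of the 20, 8 were on chromosome 1, 4 on chromosome 8, 3 on chromosome 4, 2 on chromosome 9 and 1 each on chromosomes 3, 5 and 6. Of the 12, 5 were on chromosome 11, 2 each on chromosomes 4 and 8, and 1 each on chromosomes 2, 10 and 12. For 9 of the 83 higher members every BR-IRGA 409 library was above both of the pair, a share near the 11% over all genes, and 3 of these stood within 64 places of one another in the gene list of chromosome 1. Order in the list is taken as the files give it, and no coordinates are given.

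The members as a whole were spread over all 12 chromosomes. Chromosomes 1 and 3 held 15 higher members each (18.1% of the 83, against 14.2% and 13.7% of the 18754 genes). Chromosome 8 held 10 higher members (12.0% against 6.29%), and chromosome 5 held 12 lower members (15.6% against 8.40%). 4 couples of members stood within 10 places in the list, and 3 of these couples had the same direction. The members were expressed across the whole range of levels, with a median of the IRGA 428 mean of 15.3 CPM for the higher, 21.1 CPM for the lower and 22.1 CPM for all 18754 genes.

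In BR-IRGA 409 the median CPM of the 83 was 17.2, 10.9 and 18.7 in controls 1 to 3 and 15.9, 29.2 and 25.5 in heat 1 to 3. For the 77 lower members it was 23.6, 48.7 and 21.3 in the controls and 18.8, 13.3 and 16.3 in the heat libraries. Summed over the higher members, the BR-IRGA 409 libraries had 2798 to 7020 CPM, below the 9606 and 9708 CPM of the pair. For 62 higher members every BR-IRGA 409 library was below both of the pair, where this held for 18.6% of the 18754 genes. For 73 lower members every one was above, against 11% of all genes. Both directions are partly fixed by the rule. A mean below 1 CPM in BR-IRGA 409 was found for 4 higher members (4.82%) and 1 lower member (1.30%), against 1.11% of all genes.

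The members also differed among BR-IRGA 409 libraries of the same temperature, which the rule had not used. Control 2 was the lowest of the 3 controls for 56 of the 83 higher members, where it was the lowest for 35.3% of the 18754 genes. It was the highest of the 3 for 67 of the 77 lower members, against 38.2% of all genes. Heat 1 was the lowest of the 3 heat libraries for 68 of the 83 higher members (42.7% of all genes) and the highest for 38 of the 77 lower members (37.1%). Both held together, with control 2 and heat 1 each the lowest, for 52 of the 83 higher members, against 20.8% of all genes. Each was the highest for 32 of the 77 lower members, against 19.7% of all genes.

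Control 2 differed from the mean of controls 1 and 3 by a median of −0.63 on the log2(CPM + 0.5) scale for the higher members and 0.82 for the lower members, against 0.01 over all genes. Heat 1 differed from the mean of heat 2 and 3 by −0.57 for the higher members, 0.19 for the lower members and −0.02 over all genes. Between heat 2 and heat 3 the median difference was 0.21 for the higher members, −0.25 for the lower members and 0.06 over all genes. Heat 2 was below heat 3 for 68 of the 77 lower members, against 37.2% of all genes. For the lower members the median steps between heat libraries were thus smaller than the step of control 2. Heat 1 did not stand apart from heat 2 and 3 more than these did from each other. Control 2 was the deepest of the 3 controls, with 15.0 M against 7.08 and 8.08 M, and had 10.3% of its reads outside genes against 6.04% and 6.88%. Heat 1 was the shallowest of the 3 heat libraries, with 39.0 M against 45.8 and 75.4 M, and its share outside genes was 7.78% against 7.84% and 7.16%. Their part in the result was not tested, and the choice of these 2 libraries followed from the values.

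**Figure D4:**
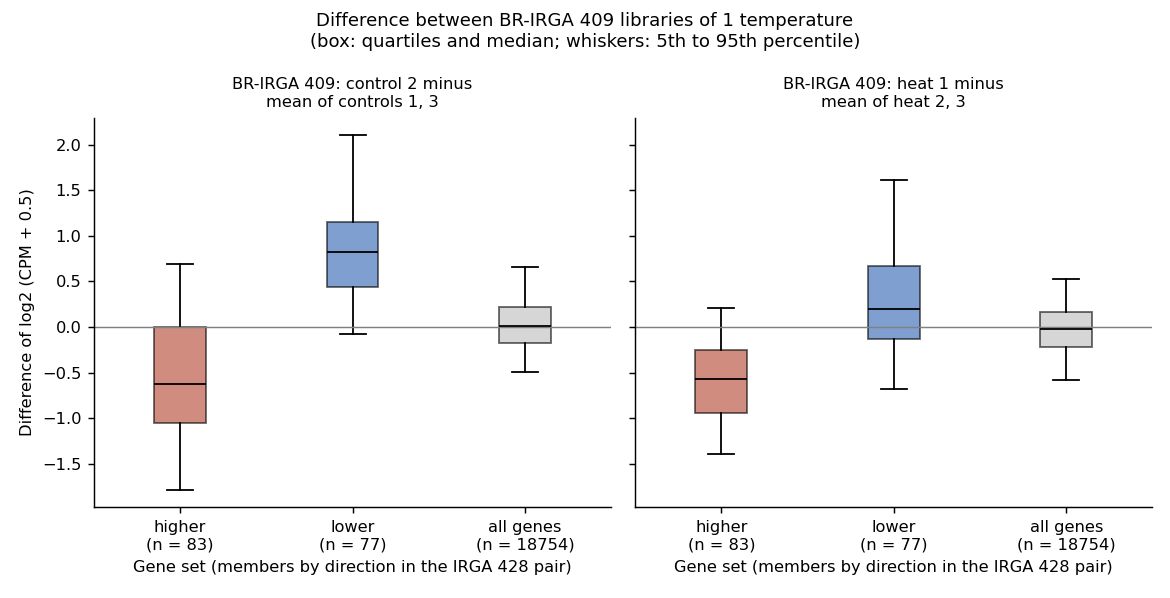
Difference on the log2(CPM + 0.5) scale between BR-IRGA 409 libraries of the same temperature for the 83 higher members, the 77 lower members and all 18754 genes (box, quartiles and median; whiskers, 5th to 95th percentile). In control 2 the medians were −0.63, 0.82 and 0.01, and in heat 1 they were −0.57, 0.19 and −0.02.

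Whether the members responded to heat was tested in BR-IRGA 409 alone, with edgeR's quasi-likelihood test on its 6 libraries and Benjamini-Hochberg adjustment over 22420 genes. At an adjusted p below 0.05, 22.3% of all genes tested were called, 12.7% higher and 9.55% lower at 38 °C. The filter on low counts kept 81 of the 83 higher members and all 77 lower members. Of the 81, 19 rose and 1 fell, and 61 did not pass. Of the 77, 29 fell and 5 rose, and 43 did not pass. The share of higher members called in either direction was thus near the background (24.7% against 22.3%), but the directions were uneven. Of the 83, 22.9% rose and 1.20% fell, against 12.7% and 10.2% of the 18754 genes. Calls among the lower members, most of them falls, were more frequent than over all genes. Counted by overlap alone, all 3 heat libraries were above all 3 controls for 26 of the 83 higher members (17.6% of the 18754 genes) and below them for 45 of the 77 lower members (28.5%). The median log2 fold change was 0.37 for the higher members tested, −0.67 for the lower members and 0.00 for all genes tested. Without BR-IRGA 409 control 2 these medians were 0.29, −0.40 and 0.01. Then 15 of the 81 higher and 26 of the 77 lower members were called, 18.5% and 33.8% against 17.6% of all genes tested. Leaving out any other library gave medians of 0.30 to 0.59 for the higher and −0.77 to −0.63 for the lower members.

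The heat libraries of BR-IRGA 409 were deeper than its controls, at 39.0 to 75.4 M against 7.08 to 15.0 M, so depth and temperature cannot be told apart. The number of higher members called dropped from 20 to 9 without control 1, to 13 without heat 2 and to 9 without heat 3. These were 11.1%, 16.0% and 11.1% of those tested, against 12.2%, 20.8% and 11.5% of all genes tested. The number of lower members called dropped from 34 to 18 without heat 3, which was 23.4% against the same 11.5%. With 1 model over all 12 libraries, in which the spread between the IRGA 428 libraries counts as replicate error, 0 higher members and 1 lower member were called, among 2646 genes in all.

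**Figure D5:**
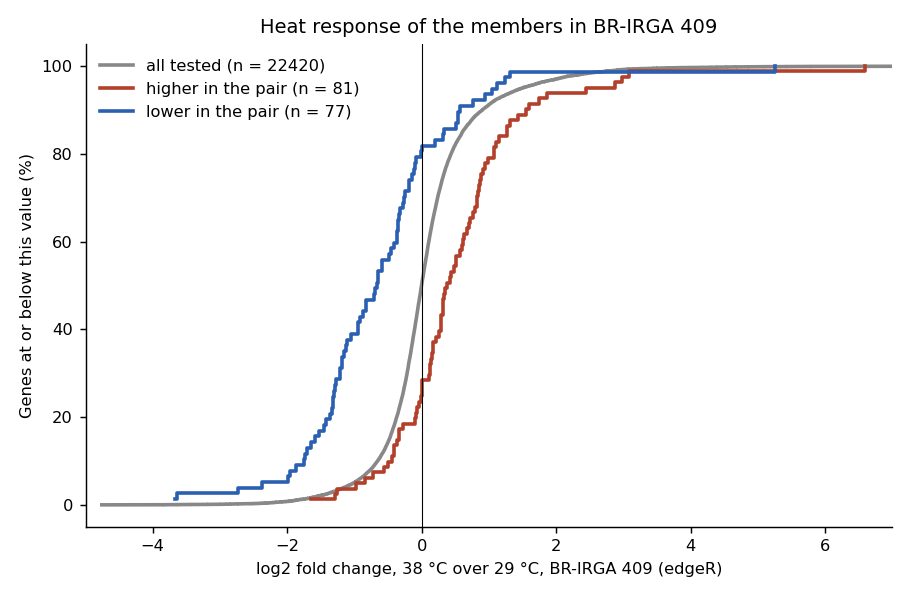
Cumulative share of genes by log2 fold change, 38 °C over 29 °C in BR-IRGA 409, for the 81 higher and 77 lower members tested and all 22420 genes. The medians were 0.37, −0.67 and 0.00.

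MH03g0141500, higher in the pair, had the largest rise in BR-IRGA 409 among the members called. It had 0.706, 0.468 and 0.124 CPM in the controls, from 5, 7 and 1 counts, and 29.7, 34.7 and 52.8 CPM in the heat libraries. The temperatures did not overlap, and the log2 fold change was 6.59 (SE 0.40; edgeR adjusted p = 0.000339). In IRGA 428 it had 0.563 and 0.183 CPM in controls 1 and 2 and 65.3 and 99.8 CPM in heat 2 and 3. Control 3, a 29 °C library, had 213 CPM, next to 216 CPM in heat 1. This gene was thus near 0 in 5 of the 6 controls of the study and high in control 3. That control 3 lay above the IRGA 428 libraries outside the pair is fixed by the rule.

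MH05g0404300, lower in the pair, had the second largest rise. Its BR-IRGA 409 levels were 0.989, 0.535 and 0.495 CPM in the controls and 46.2, 6.18 and 15.3 CPM in the heat libraries, and it rose by a log2 fold change of 5.25 (SE 0.97; edgeR adjusted p = 0.00995). In IRGA 428, control 3 and heat 1 had 0.316 and 0.424 CPM. Controls 1 and 2 had 0.901 and 3.42 CPM, and heat 2 and 3 had 14.2 and 2.96 CPM. Heat 1, from plants at 38 °C, was thus near control 3 and below controls 1 and 2, on 7 counts. That it lay below controls 1 and 2 is fixed by the rule.

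The largest falls were those of MH04g0681700 and MH01g0812700, both lower in the pair. MH04g0681700 had 138, 707 and 136 CPM in the BR-IRGA 409 controls and 25.3, 17.9 and 28.3 CPM in the heat libraries, a log2 fold change of −3.67 (SE 0.68; edgeR adjusted p = 0.0103). MH01g0812700 had 19.6, 91.1 and 11.4 CPM in the controls and 4.64, 2.53 and 2.31 CPM in the heat libraries, a log2 fold change of −3.63 (SE 0.77; edgeR adjusted p = 0.0158). Without control 2 these log2 fold changes were −2.43 and −2.21, both still called. In IRGA 428 its values were 122 and 96.4 CPM in controls 1 and 2, 4.93 and 5.93 CPM in heat 2 and 3, and 1.64 and 1.27 CPM in control 3 and heat 1. For both genes control 2 was by far the highest BR-IRGA 409 library. That control 3 of IRGA 428 lay below heat 2 and 3 is fixed by the rule. The call of MH05g0404300 was lost without control 2, at a log2 fold change of 5.04 (adjusted p = 0.0514; 5.31e-07 to 0.139 over its alternatives), and without heat 1 its log2 fold change was 4.17. That of MH01g0812700 was lost without heat 3, at −3.44 (adjusted p = 0.0727; 0.000791 to 0.102). In the model over 12 libraries MH03g0141500, MH04g0681700 and MH01g0812700 had log2 fold changes of 6.58, −3.68 and −3.62, with edgeR adjusted p-values of 0.0776, 0.100 and 0.0677.

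The 3 other members named for their margin did not pass in BR-IRGA 409. MH01g0157600 had 41.4, 9.29 and 50.2 CPM in the controls and 15.7, 91.0 and 71.1 CPM in the heat libraries, a log2 fold change of 0.92 (SE 0.72; edgeR adjusted p = 0.401). MH07g0091500 had 36.6, 10.1 and 35.4 CPM and then 16.9, 98.1 and 74.9 CPM, a log2 fold change of 1.32 (SE 0.67; edgeR adjusted p = 0.199). In both, control 2 and heat 1 were low and the temperatures overlapped. MH02g0539000 had 26.7, 95.6 and 21.2 CPM in the controls and 14.9, 12.8 and 15.8 CPM in the heat libraries, without overlap and with a log2 fold change of −1.64 (SE 0.52; edgeR adjusted p = 0.0583). MH02g0539000 passed without control 2, at a smaller log2 fold change of −0.64 (adjusted p = 0.0415), and without control 3 (adjusted p = 0.0433; 0.0415 to 0.266 over its alternatives). MH07g0091500 passed without heat 1, at 1.77 (adjusted p = 0.0393; 0.0393 to 0.536), and MH01g0157600 passed in none of its 15 alternatives (0.144 to 0.695).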

How the data were processed

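Spikelet mRNA was profiled in 12 libraries of 4 groups, assigned by their titles. The authors deposited, for each library, unnormalized whole-number counts of reads by gene. Trimmomatic 0.33, HISAT2 2.05 and HTSeq 0.6.1 appear in the submitters' processing notes. Their settings, the genome build and the strandedness were not given in the sources used here, so overlapping genes and near-identical copies are uncertain. The 5 closing lines that name no gene (together 19.9% to 25.0% of a library) were kept out of totals and tests. CPM is count over the gene total of the library times 1000000. For heat in BR-IRGA 409, edgeR 4.0.16 (R 4.3.3) was run with filterByExpr, trimmed mean of M-values scaling and the robust quasi-likelihood F-test; it was checked on simulated counts. Alternatives were DESeq2 1.42.0, limma-voom 3.58.1 and other scalings, filters, library sets and rule limits. Members, the test and the gene classes were chosen with earlier results of these data known. Named genes were at most 2 per direction: by margin at a mean of at least 10 CPM, and by fold change among members called in BR-IRGA 409 at a mean log2 CPM of 1 or more and without overlap. Genes named beyond this rule were picked after their values were seen, as the text says. Counting error only is covered by counts near 0. p-values measure the spread between libraries of 2 plants each.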

Additional observations from a re-analysis of the deposited data

How the results depend on the processing

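Of the alternatives, 1 model over all 12 libraries called 2646 genes for heat in BR-IRGA 409 (5000 with its 6 libraries alone), with 0 of the higher and 1 of the lower members (20 and 34). An adjusted p below 0.01 left 1749 genes, 8 higher and 9 lower members. Leaving out 1 BR-IRGA 409 library gave 2469 to 4490 genes (2856 without control 1, 2612 without control 3, 2469 without heat 3), 9 to 23 higher and 18 to 28 lower members. With the replicate number as a block the counts were 2701, 12 and 21. Deviations of equally numbered controls and heat libraries correlated at −0.11, −0.36 and 0.14, and each control correlated best with a heat library of another number. With 3 libraries per group, such weak values cannot decide whether the numbers pair these libraries. DESeq2, limma-voom, other scalings and other filters kept each of these counts within 1.5 times. The calls of MH03g0141500, MH05g0404300, MH04g0681700 and MH01g0812700 held in 14, 12, 12 and 11 of 15 alternatives, with adjusted p-values up to 0.0776, 0.139, 0.100 and 0.102 and no change of sign. A margin of 3 times left 24 higher and 29 lower members, and 1.5 times gave 267 and 220. Leaving out 1 of the other 4 IRGA 428 libraries, which loosens the rule, gave 94 to 129 and 80 to 286, the largest without control 1 (129 and 286); without heat 3 there were 125 higher members. Scaled library sizes, thinning to the smallest library, 0.5 CPM added, and a mean of 1 or 5 CPM kept both counts within 1.5 times. Of alternatives added after the data had been seen, scaled library sizes kept the order of BR-IRGA 409 control 2 and heat 1 within 1.5 times. A presence limit of 5 CPM gave 50 genes near 0 in the other 4 IRGA 428 libraries and present in BR-IRGA 409 in place of 32, of which 24 were seen in the pair in place of 20. Depth limits genes at a few counts: in control 1 of IRGA 428, the shallowest of the cultivar at 8.88 M, below 1 CPM is fewer than 9 counts.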

Other observations

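Genes detected in the pair alone among the IRGA 428 libraries far outnumbered those missing there. Below 0.3 CPM in each of the other 4 IRGA 428 libraries and at least 1 CPM in both control 3 and heat 1 was found for 38 genes, and the reverse for 1 gene, MH11g0049900, with 0.253 and 0.242 CPM in the pair and 1.24 to 1.89 CPM in the other 4. Most of the 38 missed the minimum mean of 2 CPM and are not members. Of the 38, 27 had at least 1 CPM in every BR-IRGA 409 library, 6 had 0 counts in all 6, and 11 were on chromosome 1 by their IDs. Of the 18754 genes, which leave out most of the 38, 14.2% were on chromosome 1. In all 6 BR-IRGA 409 libraries, 0.293% of the 18754 had 0 counts, and the share with at least 1 CPM was not counted. These limits were set after the values had been seen, and no test was made.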
